A study of Rattus norvegicus with 10 samples.

Results

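The genes of vesicle traffic and the secretory pathway were followed through 24 h of follicle-stimulating hormone (FSH) in rat Sertoli cells. They were chosen by name: a probe set belonged when the array's annotation gave it a single gene symbol that starts with Rab, Arf, Vamp, Stx, Snap or Sec and a digit, or with Cop and the letter a, b, e, g or z. The rule took 93 of 8740 probe sets, for 63 of 4736 named genes, and used no measured value. Sertoli cells, the somatic cells that nurse the germ cells of the testis and carry the FSH receptor, were from 20-day-old rats and were kept in culture. Total RNA was taken from untreated cells at 0 h and from cells given FSH for 2, 4, 8 or 24 h, with 2 arrays, numbered 1 and 2, at each of the 5 times. The dose of FSH was not given in the sources used here. No untreated culture was sampled later than 0 h, so FSH and time in culture cannot be told apart. The labels do not say whether the 2 arrays of a time came from separate cultures, so each p-value reflects array-to-array spread that may be purely technical. The cultures may hold other testicular cells as well, and in bulk RNA a smaller number of cells of a type and less RNA per cell cannot be told apart.

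A secreted or membrane protein enters the endoplasmic reticulum through the Sec61 channel, leaves it in vesicles with a COPII coat and moves through the Golgi, from which COPI (coatomer) vesicles carry proteins back. Arf GTPases recruit coats to membranes, Rab GTPases give each compartment its identity and bring tethers and motors, and SNARE proteins (the syntaxins, written Stx, the Vamp proteins and the Snap proteins) join vesicle to target by forming a complex. Sertoli cells secrete transferrin, inhibin and other proteins, and continually move junction proteins to and from their surface. The rule goes by name, so it also takes Sec14l3, a lipid-binding protein, Sec11a, a subunit of signal peptidase, and Snap91, a clathrin assembly protein.

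The promoters of 3 members are shown because Arf6 and Arf4 were the only members with a change over time that passed a test, and because Vamp1 was the only member gene with the full cAMP response element, TGACGTCA, in this window. FSH acts through cAMP, and the element is the classic binding site of CREB. Each sequence is the 250 bases before the annotated start, 5′ to 3′ on the gene's strand, from RefSeq on GRCr8. Capitals mark the full element or its core, TGACG or CGTCA, searched on both strands; the cores overlap within the full element. Arf6 lies at chr6:93589527-93589776 on the plus strand, Arf4 at chr16:1903186-1903435 on the plus strand and Vamp1 at chr4:159698644-159698893 on the plus strand.
Arf6: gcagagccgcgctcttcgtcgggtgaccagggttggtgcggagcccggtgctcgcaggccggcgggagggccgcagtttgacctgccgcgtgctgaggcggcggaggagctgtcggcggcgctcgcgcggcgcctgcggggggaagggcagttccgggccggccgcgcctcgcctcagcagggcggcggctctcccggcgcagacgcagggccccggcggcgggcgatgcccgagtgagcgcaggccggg
Arf4: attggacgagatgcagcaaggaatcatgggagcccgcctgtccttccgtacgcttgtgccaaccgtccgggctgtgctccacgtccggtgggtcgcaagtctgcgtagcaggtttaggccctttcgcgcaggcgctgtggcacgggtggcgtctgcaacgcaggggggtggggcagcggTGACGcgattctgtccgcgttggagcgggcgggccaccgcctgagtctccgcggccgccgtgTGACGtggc
Vamp1: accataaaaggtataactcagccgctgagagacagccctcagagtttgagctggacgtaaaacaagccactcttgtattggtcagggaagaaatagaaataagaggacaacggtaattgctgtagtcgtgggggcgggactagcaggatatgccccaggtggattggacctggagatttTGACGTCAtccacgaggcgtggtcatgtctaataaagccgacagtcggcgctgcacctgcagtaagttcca
The Arf6 window held no core, and that says only that these letters are not in it. Arf4 held 2 cores, which start 71 and 9 bases before the gene's start. A core was present in 22 of the 56 member promoters that the RefSeq table holds (39.3%), against 20.4% of 21842 protein-coding entries and 18.2% of all 33469 entries. The median GC content was 63% for the members, 54% for the protein-coding entries and 51.2% for all entries, and the core contains CG. The full element was present in 1 of the 56 member promoters (1.79%), 1.89% of the protein-coding entries and 1.59% of all entries.

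The measured value was a linear intensity for each probe set on each array, scaled so that all arrays shared 1 upper quartile. Values below a floor of 13.4 were set to it before log2 was taken. A probe set was tested where its mean over 10 arrays was at least 31.9, which kept 4439 probe sets in all and 65 members for 47 genes. The members just inside this limit were Vamp1 at a mean of 32 and Rab3d at 34, and those just outside were Rab4b (its rc_AA818114_at set) at 30.0 and Copz2 at 29.7. Of the 65, 6 had a mean under the limit at some time, and Vamp1 was the 1 with such a mean at 0 h. Changes are log2 differences from 0 h with their standard errors from limma, and a probe set was called where the p-value, adjusted over all 4439, was under 0.05. Intensities of different probe sets do not compare transcript levels, so each is read only against itself. In what follows, a pair of intensities is given as replicate 1, then replicate 2. The labelled cell type was checked against 10 Sertoli genes (18 probe sets), of which none was at the floor on all arrays; their summed intensity lay between 11613 and 22831. Germ cell markers were also measured, with 10 of 17 probe sets past the limit and a summed intensity of 2431 to 4809. No macrophage or endothelial probe set passed the limit.

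No member was called at 2, 4, 8 or 24 h against 0 h by limma with 1 mean per time. Of all tested probe sets 0.676% were called at 2 h, 0.856% at 4 h, 0.766% at 8 h and 0.0% at 24 h. Members with an unadjusted p under 0.05 numbered 1 of 65 at 2 h, 3 at 4 h, 7 at 8 h and 1 at 24 h, and the background of such p-values was 4.57%, 7.75%, 9.3% and 4.6%. Arrays of the same replicate number deviated together across probe sets. The correlation r was 0.11 to 0.417 between 0 h and a later time, and 0.476 to 0.698 between later times. With the replicate number as a block, limma called Arf6 at 4 h and Arf6 and Arf4 at 8 h. These are 1 and 2 of 65 members, beside 2.95% and 2.68% of all tested probe sets (2.64% and 2.3% counted upward alone). Counts this small cannot tell the members' share from the background. The block called no member at 2 or 24 h, where it called 1.22% and 0.0901% of all. Both called members are Arf GTPases and both were higher with FSH.

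Arf6, the Arf of the plasma membrane and endosomes that controls membrane recycling and cortical actin, had the largest change of the 65 members at 2 and at 4 h. Its intensities (rc_AA944324_at) were 318 and 210 at 0 h, 570 and 575 at 2 h, 829 and 681 at 4 h, 691 and 566 at 8 h, and 335 and 235 at 24 h. All 6 arrays from 2 to 8 h lay above both 0 h arrays and both 24 h arrays. The means were 264 ± 75.9 (SD, n = 2) at 0 h and 755 ± 105 (SD, n = 2) at 4 h. The log2 change was 1.15 ± 0.35 at 2 h, 1.54 ± 0.35 at 4 h (2.91-fold) and 1.27 ± 0.35 at 8 h (2.42-fold). The adjusted p from limma without the block was 0.484, 0.0986 and 0.21 at these times. With the block the standard error was 0.26 and the adjusted p was 0.102, 0.0127 and 0.0348. A test for a change at any time called Arf6 with the block (F test, adjusted p = 0.0201) and not without it (adjusted p = 0.182), beside 3.22% and 0.991% of all probe sets. At 24 h the change was 0.12, and the difference from 8 h, -1.16, was not called (adjusted p = 0.0895 with the block).

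Arf4, which works at the Golgi and in the early secretory pathway, reached its highest intensity at 8 h. Its values (L12383_at) were 847 and 639 at 0 h, 953 and 904 at 2 h, 1259 and 1103 at 4 h, 1868 and 1416 at 8 h, and 1018 and 791 at 24 h. Both 8 h arrays lay above all 8 others. The log2 change was 0.33 at 2 h, 0.68 at 4 h, 1.14 ± 0.32 at 8 h (2.21-fold) and 0.29 at 24 h. At 8 h the adjusted p from limma was 0.23 without the block and 0.0449 with it. The 8 h change was 1.14 within replicate 1 and 1.15 within replicate 2. For Arf6 the 8 h change was 1.12 and 1.43 within the replicate numbers. Germ cell markers summed to 2700 and 4588 on the 0 h arrays, 3060 and 4387 at 4 h and 2778 and 4649 at 8 h. Sertoli markers summed to 11613 to 19837 at 0 h, 16884 to 20234 at 4 h and 15000 to 22831 at 8 h. This list includes the inhibin gene Inha, itself called at 8 h against 0 h (M36453_at, adjusted p = 0.0302 from limma without the block). M36453_at measured 286 and 141 at 0 h and 2939 and 1454 at 8 h. M32754cds_s_at, also of Inha, measured 363 and 167 at 0 h and 1793 and 767 at 8 h. The sum is therefore not a measure of Sertoli cell content alone. The ratio of signal at the 3′ end of actin to that at its 5′ end, a measure of RNA quality, was 1.17 and 1.76 at 0 h, 1.12 and 1.74 at 4 h and 0.928 and 1.52 at 8 h. The part of these in the Arf6 and Arf4 values was not tested.

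**Figure D1:**
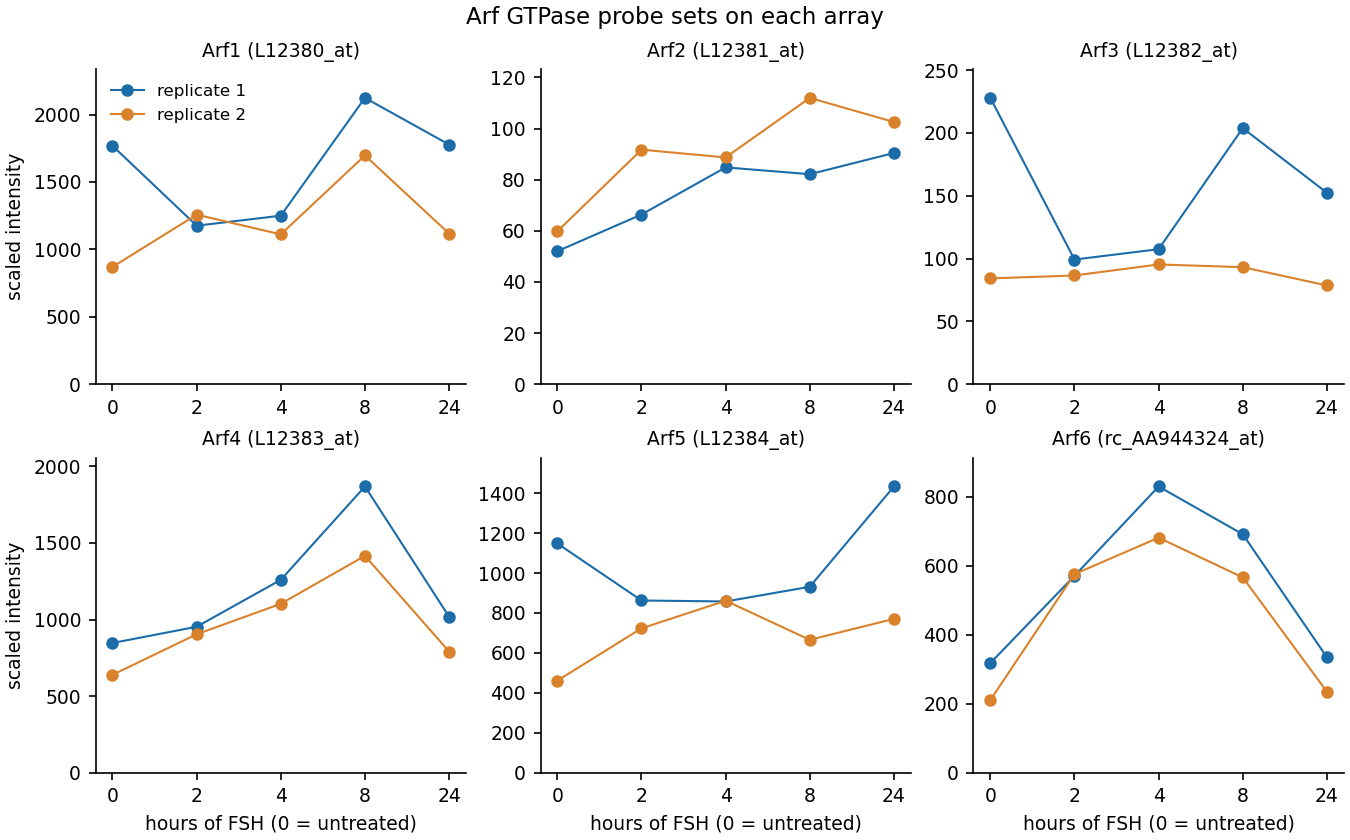
Scaled intensity of Arf GTPase probe sets (vertical axis) against hours of FSH (horizontal axis, not to scale), with a point for each array and a line for each replicate number. The Arf6 arrays at 2, 4 and 8 h, from 566 to 829, sit above its arrays at 0 and 24 h, from 210 to 335, and Arf4 is highest at 8 h.

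The other Arf genes were not called at any time. Arf1, which recruits coatomer to the Golgi and had the brightest Arf probe set, measured 1768 and 870 at 0 h, 1176 and 1258 at 2 h, 1250 and 1111 at 4 h, 2123 and 1697 at 8 h, and 1777 and 1117 at 24 h. Its 0 h arrays lay far apart and overlapped the arrays of every later time. Arf2 measured 52.0 and 59.8 at 0 h, 82.2 and 112 at 8 h, and 90.5 and 103 at 24 h, with log2 changes of 0.78 and 0.79. All its FSH arrays in this probe set (L12381_at) were above both 0 h arrays, although neither change was called. The other Arf2 probe set, rc_AA964530_at, was not tested and did not share this. It measured 17.9 and 44.4 at 0 h, 9.63 and 8.74 at 4 h, 4.37 and 30.9 at 8 h, and 24.3 and 24.1 at 24 h. Arf5, a close relative of Arf4, had changes between 0.11 and 0.53, and its 0 h arrays of 1148 and 461 spanned most later values. The median change of the 6 tested Arf probe sets was 0.70 at 8 h, beside -0.02 for all tested probe sets.

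Sec31a, which forms the outer cage of the COPII coat, gave the largest log2 change of any member at 8 h, from 1 of its 3 probe sets. That probe set (AF034582_g_at) measured 204 and 341 at 0 h, 294 and 562 at 2 h, 867 and 508 at 4 h, 865 and 757 at 8 h, and 590 and 448 at 24 h. Both arrays at 4, 8 and 24 h were above both 0 h arrays. Its change was 1.33 at 4 h, 1.62 ± 0.45 at 8 h and 0.96 at 24 h, and at 8 h the adjusted p was 0.21 without the block and 0.0796 with it. The other 2 probe sets did not show the same course. AF034582_at measured 82.1 and 13.4 at 0 h, 43.8 and 76.2 at 4 h, and 51.4 and 50.3 at 8 h. Its change of 0.62 at 8 h was between groups that overlapped, and its 0 h value in replicate 2 was below the floor. Within replicate 1 the change was -0.91 at 4 h and -0.67 at 8 h, and within replicate 2 it was 2.50 and 1.91. The third, rc_AA800517_s_at, measured 44.8 and 23.7 at 0 h, 81.9 and 75.7 at 4 h and 46.4 and 34.3 at 8 h, with changes of 1.27 and 0.29. The mean changes of the 3 probe sets thus shared a sign at 4 and 8 h and differed in size, but the replicates of AF034582_at had opposite signs. Which of the 3 probe sets follows the transcript cannot be told from these values.

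The rest of the early secretory pathway was measured with changes of less than 1 log2 unit. Sec61a1, the channel's pore subunit, measured 218 and 144 at 0 h, 230 and 291 at 8 h and 281 and 230 at 24 h. Its change was 0.55 at 8 h and 0.53 at 24 h. Sec61b, a small subunit of the same channel, had a change of 0.56 at 24 h, from 459 and 268 to 658 and 404. Sec62, which helps translocation after synthesis, measured 35.7 and 102 at 0 h, so its change of 0.83 at 8 h rested on a pair of 0 h arrays that lay far apart. Sec11a was highest at 24 h in its brighter probe set, with 297 and 299 at 0 h and 385 and 420 at 24 h, a change of 0.43. Sec22a, a SNARE-like protein of the endoplasmic reticulum, was among the largest negative values at 4 h, -0.60, from 46.5 and 23.2 to 17.3 and 27.1. None of these was called.

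The coatomer subunits showed no common direction. Copz1, the zeta subunit and the brightest of them, measured 1103 and 332 at 0 h, 386 and 423 at 2 h, 550 and 423 at 4 h, 790 and 369 at 8 h, and 669 and 490 at 24 h. Replicate 1 at 0 h was its highest array. Copb1 had log2 changes of 0.09 to 0.35 and the probe sets of Copb2 ran from -0.34 to 0.19. The median of the 4 tested coatomer probe sets at 8 h was 0.00.

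Among the SNAREs that ride on vesicles, Vamp3 was higher at 8 h on both arrays. Vamp3, or cellubrevin, serves recycling endosomes in most cells. It measured 317 and 255 at 0 h, 424 and 349 at 2 h, 548 and 322 at 4 h, 624 and 562 at 8 h, and 382 and 316 at 24 h. Both 8 h arrays were above all others, and the change of 1.06 ± 0.36 had an adjusted p of 0.344, or 0.0752 with the block. Vamp1, a synaptobrevin, measured in its M24104_g_at probe set 26.8 and 17.4 at 0 h, 25.5 and 26.6 at 2 h, 49.7 and 42.3 at 4 h, 42.4 and 45.1 at 8 h, and 21.6 and 22.7 at 24 h. Its 4 and 8 h arrays lay above its 6 others, with changes of 1.09 and 1.02 that were not called. Its 0, 2 and 24 h means were below the intensity limit, so it was tested only through the times at which it was high, and these values are a description. The other Vamp1 probe set, M24104_at, was not tested and measured 31.7 and 7.45 at 0 h, 12.6 and 8.74 at 4 h, and 11.2 and 10.8 at 8 h, with all of the 4 and 8 h values below the floor. Vamp2, the other synaptobrevin, went the opposite way at 2 h, with -0.75 in its rc_AI101103_s_at probe set, from 166 and 94.8 to 79.0 and 70.4. Vamp5 measured 71.6 and 49.5 at 0 h and 32.1 and 38.0 at 8 h, a change of -0.77 that was not called.

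Snap23, the plasma membrane SNARE of non-neuronal cells, was the only Snap gene past the intensity limit. Its AF052596_at probe set measured 60.8 and 57.4 at 0 h, 89.7 and 59.5 at 2 h, 84.6 and 48.3 at 4 h, 136 and 84.4 at 8 h, and 72.3 and 52.2 at 24 h. The rc_AA892759_at probe set measured 50.5 and 35.8 at 0 h, 82.1 and 74.6 at 2 h, 71.6 and 46.1 at 4 h, 66.2 and 99.2 at 8 h, and 46.4 and 32.6 at 24 h. In both probe sets the 8 h arrays were above the 0 h arrays, with changes of 0.86 and 0.93, and neither was called. At 2 h the changes were 0.31 and 0.88. Snap25, its neuronal counterpart, stayed at 37.7 or lower on every array in all 4 probe sets, and 2 of them were at the floor on all arrays.

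The syntaxins varied without a shared direction, with a median of -0.08 at 8 h over 12 probe sets. Stx5, the SNARE of transport from the endoplasmic reticulum to the Golgi, had the brightest of them, at 364 and 230 at 0 h, 209 and 271 at 2 h, 259 and 404 at 4 h, 224 and 257 at 8 h, and 214 and 235 at 24 h. A dimmer Stx5 probe set (U87971_at) gave the largest negative value at 24 h, -0.64, from 70.2 and 60.9 to 37.7 and 46.6. Stx8, of late endosomes, was lowest at 8 h in 1 probe set (AF033109_g_at), with 193 and 177 at 0 h and 112 and 134 at 8 h, a change of -0.59. Stx1a, the syntaxin of neuronal exocytosis, gave -1.15 at 8 h in a dim probe set (D12519_s_at), from 23.8 and 62.4 to 22.4 and 10.5, where its last value was below the floor and its first hardly differed. Stx4, the plasma membrane partner of Snap23, had changes of 0.19 to 0.40.

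**Figure D2:**
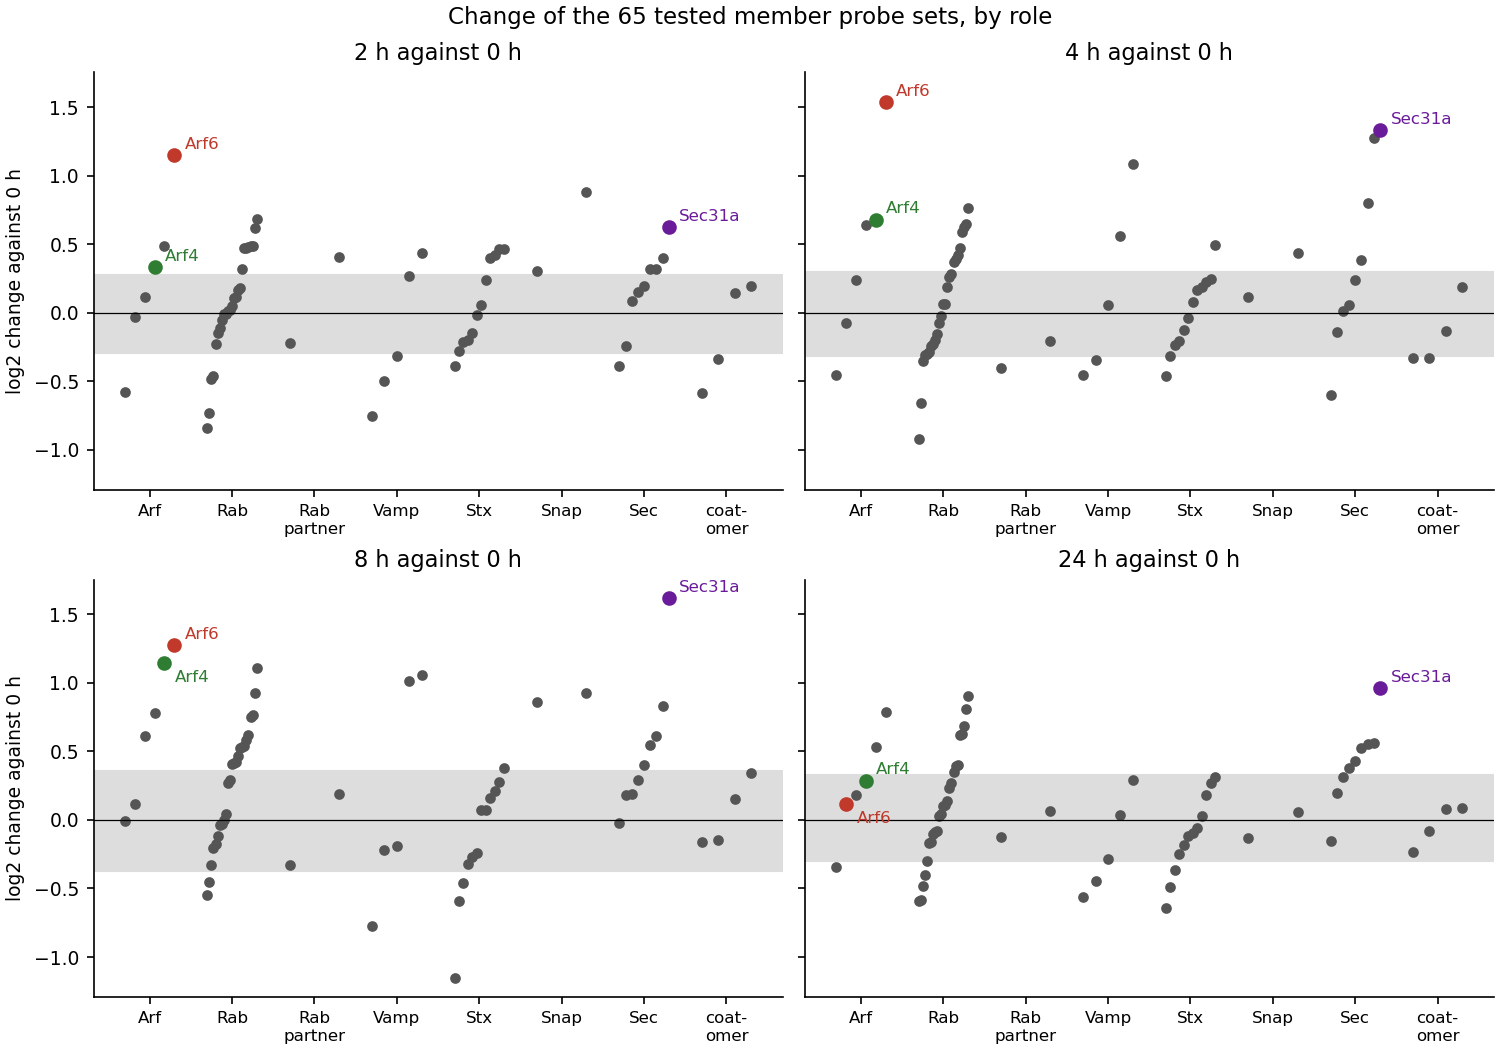
Log2 change from 0 h (vertical axis) of the tested members, grouped by role (horizontal axis) at 2, 4, 8 and 24 h, with a point for each probe set and a grey band from the lower to the upper quartile of all tested probe sets. At 8 h the Arf points have a median of 0.70, the Sec points 0.40, the Rab points 0.41 and the syntaxins -0.08.

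The Rab GTPases, with 41 probe sets for 28 genes, were the largest family, and 25 probe sets for 18 genes were tested. None was called at any time. Rab11a, which marks recycling endosomes, was highest at 24 h in all 3 of its probe sets. M75153_at measured 395 and 311 at 0 h, 359 and 399 at 2 h, 259 and 317 at 4 h, 318 and 370 at 8 h, and 554 and 573 at 24 h. M75153_g_at measured 275 and 209 at 0 h and 439 and 403 at 24 h, and E03859cds_s_at measured 373 and 297 at 0 h and 455 and 425 at 24 h. The 24 h changes were 0.68, 0.81 ± 0.38 and 0.40, with an adjusted p of 0.996 for the second. The probe sets of a gene are not replicates of a time, since they read the same RNA. Both 24 h arrays were above the other 8 for 5 of 65 members, beside 2.77% of all tested probe sets; the others were a Sec11a and a Rab28 probe set. This pattern was picked out after its values were seen. Peritubular myoid markers summed to 1269 to 1813 at 0 h and 1769 to 5169 at 24 h, and their part in these values was not tested.

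**Figure D3:**
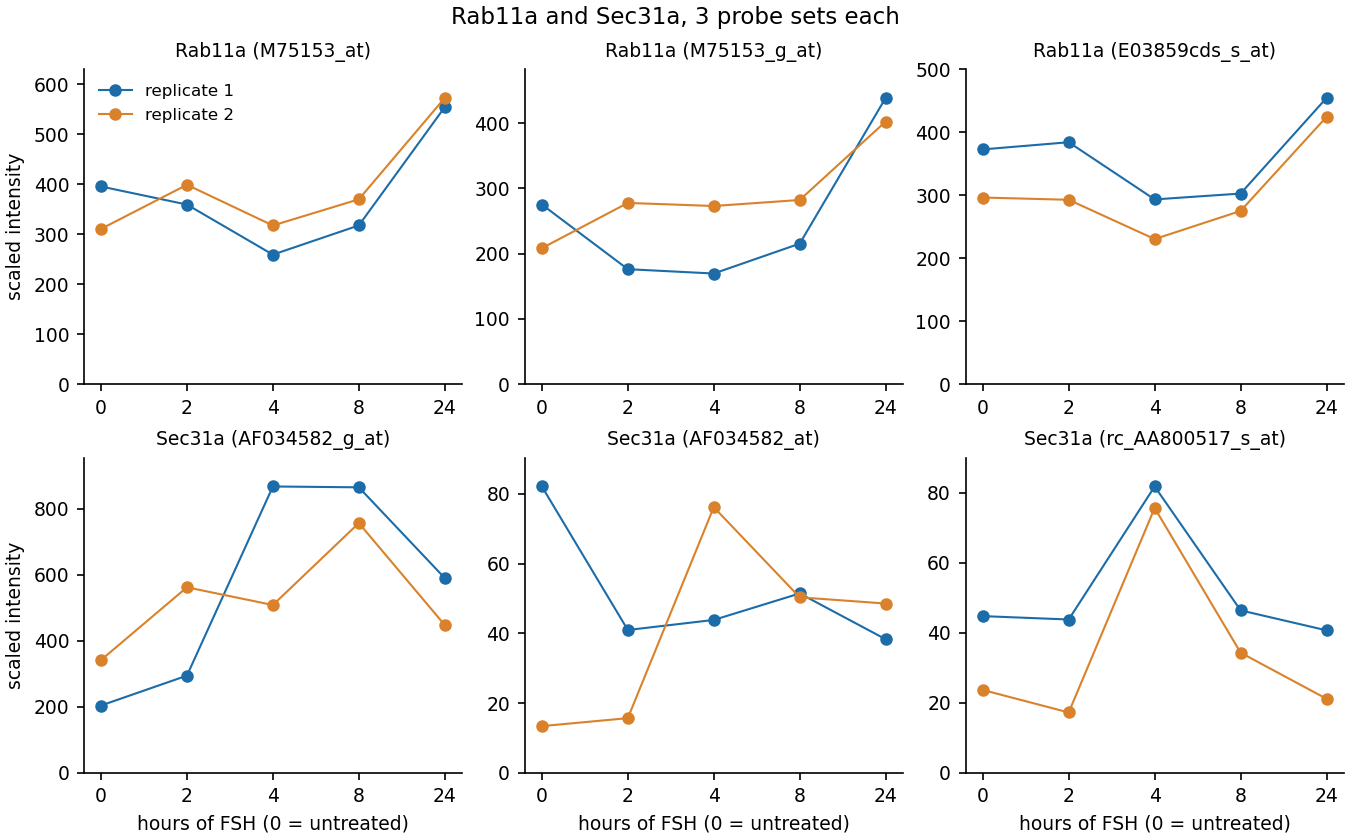
Scaled intensity of the 3 Rab11a and the 3 Sec31a probe sets (vertical axes, each from 0) against hours of FSH (horizontal axis, not to scale), with a point for each array. All Rab11a probe sets are highest at 24 h, from 403 to 573, while the Sec31a probe sets differ in course.

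Rab11b, the sister of Rab11a, did not share that course. D01046_at measured 774 and 100 at 0 h, 252 and 156 at 2 h, 331 and 168 at 4 h, 668 and 174 at 8 h, and 271 and 127 at 24 h. Its arrays differed more between replicate numbers than between times. The rc_AA891669_at probe set measured 233 and 65.9 at 0 h and 83.5 and 57.2 at 2 h, a change of -0.84 that was the largest negative value at 2 h. Without replicate 1 at 0 h this change was 0.068. The brightest Rab probe set, rc_AA891669_g_at, also of Rab11b, measured 914 and 383 at 0 h, 417 and 612 at 2 h, 757 and 597 at 4 h, 1188 and 621 at 8 h, and 1142 and 526 at 24 h.

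Other Rabs are described by their values, with none called. Rab10, which carries cargo to the plasma membrane, measured 125 and 220 at 0 h and 361 and 275 at 8 h in its rc_AA955306_at probe set, a change of 0.93. In the other Rab10 probe set, rc_AI230406_at, the replicates moved in opposite directions, from 141 and 313 at 0 h to 477 and 207 at 8 h. Rab14, of the Golgi and early endosomes, measured 30.8 and 62.5 at 0 h and 71.1 and 78.0 at 8 h, a change of 0.76. Both 8 h arrays were above the other 8 for 4 of 65 members (these 2 probe sets, Arf4 and Vamp3), beside 3.18% of all. Rab12 measured 153 and 103 at 0 h, 383 and 106 at 2 h, 282 and 133 at 4 h, 419 and 175 at 8 h, and 424 and 131 at 24 h. Its changes of 0.68 at 2 h and 0.91 at 24 h came mostly from replicate 1. Rab3d, of regulated exocytosis, gave the largest negative value at 4 h, -0.92, from 29.3 and 71.4 to 43.4 and 8.54. Its arrays thus moved in opposite directions, and its last value was below the floor. Its mean was 50.4 at 0 h, and its means of 27.6 at 2 h and 26.0 at 4 h were below the intensity limit. Rab3d was thus tested in part through the 0 h arrays from which its fall is counted, and these values are a description. Rab5a, of early endosomes, was low on replicate 1 at 0 h (28.0, against 96.3 on replicate 2), and its change of 0.53 at 8 h was not called.

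Of the 28 untested probe sets, 8 were at or under the floor on all 10 arrays, and 16 genes had no tested probe set. Rab3a and Rab3c, which serve regulated exocytosis in neurons and endocrine cells, measured 4.20 to 25 and 0.670 to 18, and Snap91, a clathrin assembly protein best known in neurons, measured 2.16 to 8.25. Rab27a, which tethers secretory granules, was at the floor on every array. The remaining untested genes were Rab2a, Rab4a, Rab8b, Rab15, Rab29, Rab33b, Rab38, Stx3, Snap25, Snap29, Copz2 and Sec14l3. Low intensity may be a property of a probe set, so these values do not show that a transcript was absent.

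Over the 65 tested members the median log2 change was 0.11 at 2 h, 0.06 at 4 h, 0.21 at 8 h and 0.06 at 24 h. For all tested probe sets it was -0.02, -0.03, -0.02 and 0.02. At 8 h, 42 members (64.6%) had a positive change, against 48.3% of all. Members with both 8 h arrays above both 0 h arrays numbered 18 of 65 (27.7%), beside 17.7% of all. Both were below for 4 (6.15%), beside 17.2%. From 8 to 24 h the median was -0.12, against 0.03 for all. Both 24 h arrays lay below both 8 h arrays for 18 members (27.7%), beside 17.5% of all. These differences in share were not tested. Within the replicate numbers, 26 members were above their 0 h value at 8 h in both and 11 were below in both. Another 9 were above in replicate 1 alone and 19 in replicate 2 alone. The counts within the replicate numbers were not made over all tested probe sets, so they describe the members and show no trait particular to them. No member was called between 2 and 4 h, 4 and 8 h, or 8 and 24 h, where 0.0%, 0.0% and 0.225% of all probe sets were called without the block. Unadjusted p-values under 0.05 fell on 1, 0 and 4 of the 65 members (1.54%, 0% and 6.15%), beside 3.6%, 3.42% and 6.49% of all. With the block 0.0%, 0.0901% and 1.15% of all were called, and no member.

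**Figure D4:**
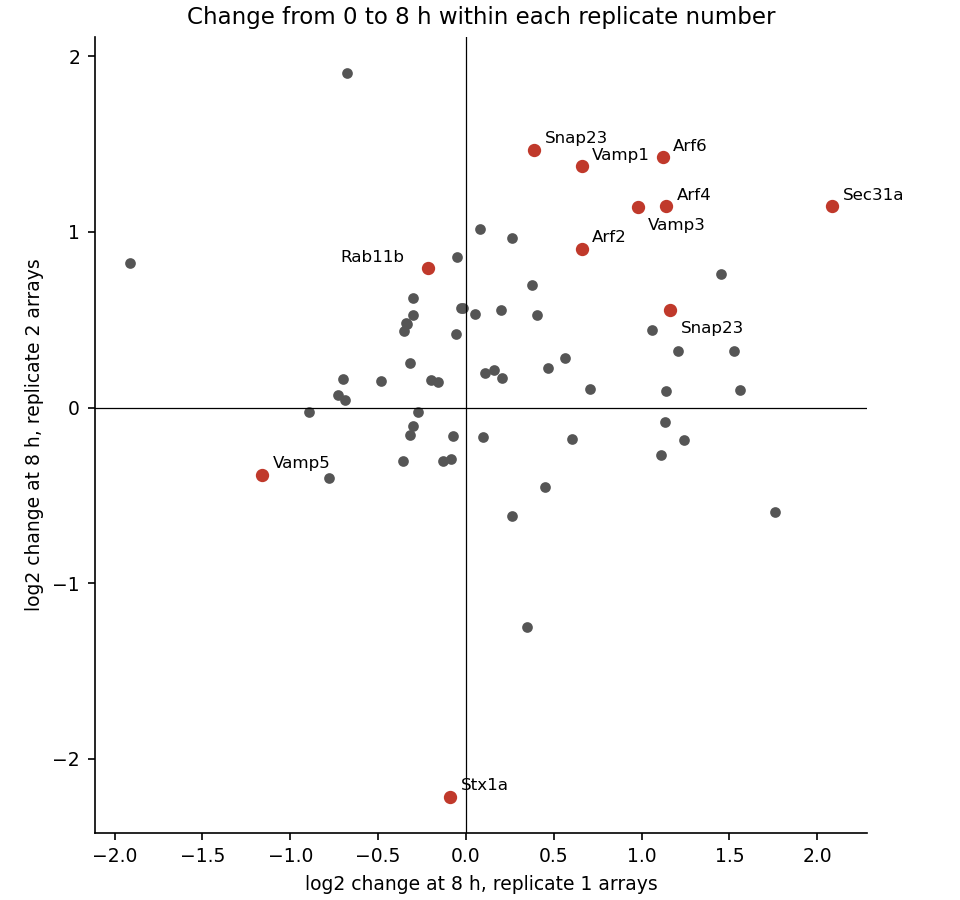
Log2 change from 0 to 8 h within replicate 1 (horizontal axis) and within replicate 2 (vertical axis), with a point for each of the 65 tested members and named members in red. Arf6 and Arf4 lie above 1 on both axes.

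The replicate number was compared over 5 arrays against 5, where each time has 2 against 2. Between replicate 2 and replicate 1, limma called 8 of 65 members (7 lower and 1 higher in replicate 2), beside 15.2% of all tested probe sets, of which 6.53% were higher and 8.65% lower. The members' share, 12.3%, was therefore close to the background. All arrays of replicate 2 lay below all of replicate 1 for 4 members (6.15%), beside 5.09% of all, and above for 2 (3.08%), beside 5.47%. Rab7a, which brings late endosomes to lysosomes, measured 325 and 153 at 0 h, 339 and 157 at 2 h, 334 and 163 at 4 h, 531 and 165 at 8 h, and 259 and 171 at 24 h. Every replicate 1 array lay above every replicate 2 array, and the difference was -1.10 ± 0.19 (adjusted p = 0.00554). Rab12 differed by -1.30 ± 0.21 (adjusted p = 0.00452), with its lowest replicate 1 array above 4 of the 5 replicate 2 arrays. Stx6, of the trans-Golgi network, measured 71.1 to 98.8 on replicate 1 and 26.0 to 47.8 on replicate 2, a difference of -1.13 (adjusted p = 0.00887).

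Of the 3 Rab11b probe sets, 2 were lower in replicate 2, by -1.53 ± 0.31 (D01046_at, adjusted p = 0.0103) and -1.17 (rc_AA891669_at, adjusted p = 0.0177). The third differed by -0.62 and was not called (adjusted p = 0.143). Arf3, a close relative of Arf1, measured 228 and 84.2 at 0 h, 99.2 and 86.6 at 2 h, 107 and 95.3 at 4 h, 204 and 93.2 at 8 h, and 152 and 78.6 at 24 h (-0.78, adjusted p = 0.0489). Stx12, of recycling endosomes, differed by -0.62 in its AF044581_at probe set (adjusted p = 0.0489). Rab3ip, or Rabin8, the exchange factor that activates Rab8, went the other way. It measured 33.4 and 61.3 at 0 h, 41.1 and 87.8 at 2 h, 20.5 and 75.5 at 4 h, 37.3 and 71.2 at 8 h, and 39.0 and 57.6 at 24 h, a difference of 1.07 ± 0.25 (adjusted p = 0.02) with no overlap. Rab11fip5, a Rab11 effector, measured 148 and 128 at 0 h, 132 and 106 at 2 h, 92.1 and 117 at 4 h, 115 and 104 at 8 h, and 145 and 111 at 24 h. Both its 4 h and both its 8 h arrays lay below both 0 h arrays, with changes of -0.41 and -0.33, and it was not called in any comparison.

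The count of 8 was 4 without replicate 2 at 4 h or without either 8 h array, and 5 without replicate 1 at 4 h. In those fits 294 to 331 of all 4439 probe sets were called, against 674 with all arrays. The members' count thus moved with that of all probe sets. Rab7a, Rab12, Stx6 and the D01046_at probe set of Rab11b were called whichever array was left out. Leaving out either array of a time gave the same difference, since the array that stays has no partner at that time. The 10 fits are therefore not 10 separate checks. The rc_AA891669_at probe set of Rab11b was called in 7 of those 10 fits, Rab3ip in 4 (adjusted p up to 0.0846), Arf3 in 2 and Stx12 in 0. With no filter on mean intensity, 0 members were called, beside 167 of all 8740 probe sets tested. Germ cell and Sertoli markers differed between the replicate numbers. Among 7 tested peritubular myoid probe sets and 1 Leydig probe set, 0 were called. Among 4 tested neuron and neuroendocrine probe sets, 1 was lower in replicate 2 and 0 higher. Of 10 tested germ cell probe sets, 6 were higher in replicate 2 and 0 lower, and the list summed to 2431 to 3522 on replicate 1 and 4387 to 4809 on replicate 2. Of 14 tested Sertoli probe sets, 6 were lower in replicate 2, and their sum was 15703 to 22831 on replicate 1 and 11613 to 16884 on replicate 2. The actin ratio was 0.928 to 1.17 on replicate 1 and 1.48 to 1.76 on replicate 2. The part of these in the members' difference was not tested.

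**Figure D5:**
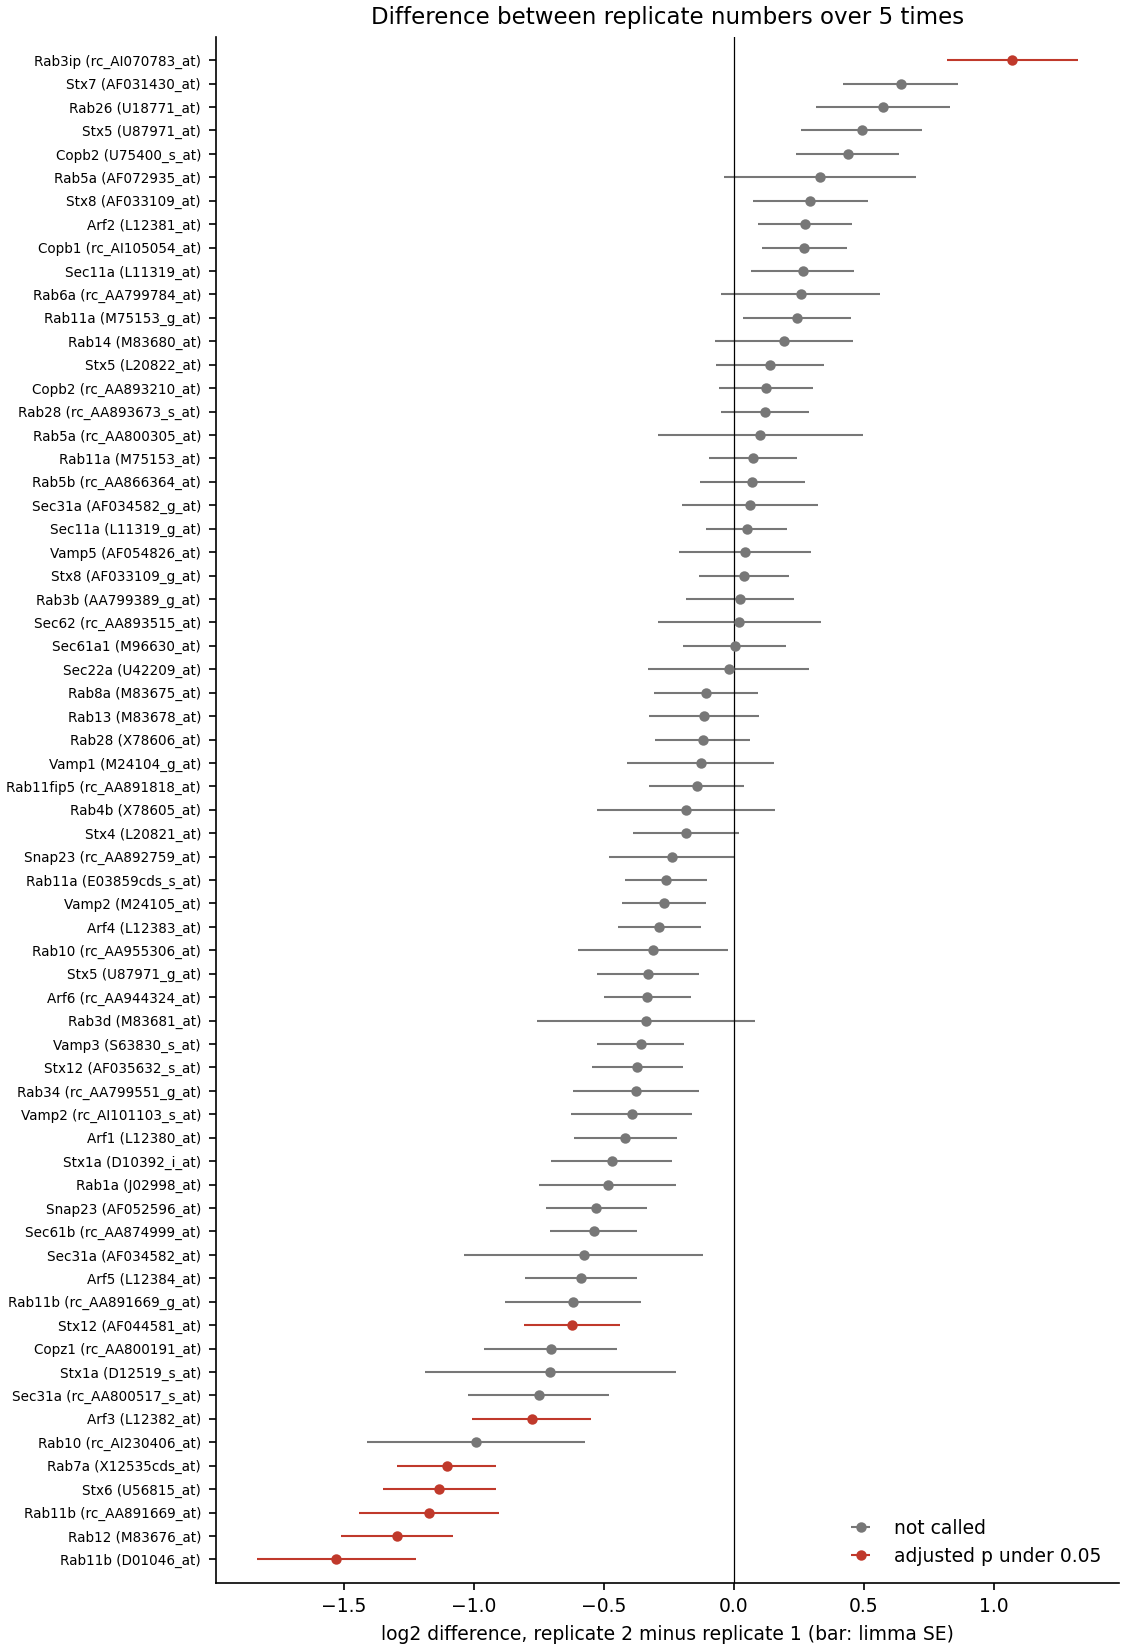
Log2 difference of replicate 2 from replicate 1 (horizontal axis) for the tested members, each named, with bars for the limma standard error and the called ones in red. The called members with lower values in replicate 2 lie between -1.53 and -0.62, and Rab3ip is the called member on the other side, at 1.07.

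The partners of these genes were followed in 6 lists (SNARE partners, Rab partners, Arf partners, clathrin and adaptors, COP cargo and tethers, and the translocon), with 98 tested probe sets for 71 genes that are no members. None was called at any time without the block. With the block 1 of 98 was called (1.02%, beside 2.68% of all tested probe sets), Cltc at 8 h, the clathrin heavy chain that forms the coat of endocytic and trans-Golgi vesicles. Cltc measured 429 and 436 at 0 h, 390 and 521 at 2 h, 568 and 642 at 4 h, 916 and 1176 at 8 h, and 456 and 552 at 24 h. Both 8 h arrays were above all others, and the change was 1.26 ± 0.25 (2.40-fold, adjusted p = 0.0298 from limma with the block). The median change of the 98 probe sets at 8 h was 0.14. Between the replicate numbers 6 of them were higher and 10 lower in replicate 2, or 16.3% beside the 15.2% of all. The largest were Arl3, an Arf-like GTPase, at 1.33 and Sh3gl3, an endophilin of endocytosis, at -1.31.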

How the data were processed

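RNA of cultured rat Sertoli cells was measured on 10 Affymetrix arrays, 2 at each of 5 times. The deposited values are linear intensities per probe set; their 2% trimmed means were 125.2 to 125.27 on every array, and the software that made them is not given in the sources used here. After 59 control probe sets were removed, arrays were divided to a common 75th percentile, 107 (divisors 0.911 to 1.13), values were floored at 13.4 and log2 was taken. Tests used limma 3.58.1 in R 4.3.3 (lmFit, eBayes with trend) on 4439 probe sets with a mean of at least 31.9, with Benjamini-Hochberg adjustment over all. The fit without the block was tested on simulated data for 8 h against 0 h. Those data held no difference between replicate numbers, and the fit with the block was not tested in this way.

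Samples were grouped by the labels; the 2 h array without a number was taken as replicate 1. Across probe sets, arrays that carry the same number deviated from their time means together (r of 0.11 to 0.698 over 10 pairs), so the number was also used as a block. Described with array values by a fixed rule are called members, the 3 largest rises and falls at each time and the brightest probe set of each family. Other members, such as Vamp1, Rab10, Rab14, Arf2, Sec61a1 and Sec62, are also described, and no fixed rule chose those. Members and lists were chosen with earlier results of these data known. Alternatives were other scalings, floors, no filter and leaving out each array. All 93 members matched RefSeq gene identifiers. Array number limits the precision.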

Additional observations from a re-analysis of the deposited data

Results flagged for a closer look

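In 6 of the 65 tested probe sets, both arrays of 1 time lay on one side of their own 0 h value. Both arrays of another time lay on the opposite side. These times were not set against each other in a test (2 with 8 h, 2 with 24 h and 4 with 24 h). The share over all tested probe sets was not counted, so the 6 are not a result about the members. Rab11b (rc_AA891669_at) was lower at 2 h and higher at 8 h, and the 2 h change minus the 8 h change was -1.27. Snap23 (rc_AA892759_at) was higher at 2 and 4 h and lower at 24 h, with differences of 1.01 between 2 and 24 h and 0.563 between 4 and 24 h. Sec31a (rc_AA800517_s_at) was lower at 2 h and higher at 8 h (-0.538), and higher at 4 h and lower at 24 h (1.42). Within replicate 1 its change was only -0.03 at 2 h and 0.05 at 8 h. Stx12 (AF035632_s_at) was higher at 2 and 4 h and lower at 8 and 24 h, by 0.701 between 2 and 8 h, 0.646 between 2 and 24 h and 0.407 between 4 and 24 h. Rab11a (E03859cds_s_at) and Sec11a (L11319_g_at) were lower at 4 h and higher at 24 h (-0.756 and -0.574). In each case the difference was not tested. The times share their 0 h arrays.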

How the results depend on the processing

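The 24 named changes over time were not called and so had no call to lose; of their 384 repeats under the alternatives, 5 reversed and 3 gained a call, all 3 with the replicate block. The 8 calls between replicate numbers were lost in 40 of 120 repeats, with no change of direction. These repeats are not all separate checks, since leaving out either array of a time gave the same difference between replicate numbers. The reversals all came from leaving out 1 array. Many of the 384 repeats could not reverse a change over time. Leaving out an array of another time, adding the block or dropping the filter leaves the log2 change as it was. The share of reversals is therefore no measure of how stable the directions are. Without replicate 1 or 2 at 0 h the Rab11b changes ran from 0.068 to -1.75 at 2 h and from 0.25 to -1.57 at 4 h (rc_AA891669_at), and from 0.89 to -2.06 at 24 h (D01046_at). Rab12 ran from -0.25 without replicate 1 at 2 h to 1.61 without replicate 2. Rab3d at 24 h ran from -1.23 without replicate 1 at 0 h to 0.052 without replicate 2. With the replicate number as a block, 1 member was called at 4 h, 2 at 8 h and 1 by the F test over all times; no other time call changed. Leaving out each array, the calls at every time stayed at 0, and those between replicate numbers ran from 4 to 11. Calls between replicate numbers over all 4439 probe sets ran from 294 to 1047 in the same fits. Without a filter on mean intensity, 0 members were called between replicate numbers, beside 167 of all 8740 probe sets tested. Stx12 and Arf3 were not called between replicate numbers with the values as deposited (adjusted p = 0.0877 and 0.0718) or after quantile normalization (0.0512 and 0.0544), and Stx12 was not with a higher floor (0.0501). Using the values as deposited moved the median difference of all probe sets between replicate numbers from -0.05 to 0.08.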

Other observations

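The annotation gives 2 further probe sets to Rab1b and Rab1a together, so they are no members. The brighter measured 430 and 101 at 0 h, 158 and 92.3 at 2 h, 172 and 104 at 4 h, 359 and 87.3 at 8 h, and 239 and 123 at 24 h, for replicate 1 and then replicate 2. Replicate 1 was the higher at all 5 times. The probe set of Rab1a alone measured 60.6 and 83.8 at 0 h and 126 and 114 at 8 h, and did not share that order at 0 h.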
